A study of Oryctolagus cuniculus with 36 samples.

Results

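The genes described here are 10 genes of gluconeogenesis and glycogen metabolism in rabbit liver, taken by symbol from a table of 23394 genes. They are PCK1, PCK2, PC, FBP1, G6PC and SLC37A4, which carry out or complete glucose synthesis, the regulator PPARGC1A, and GYS2, PYGL and GBE1 of glycogen metabolism. All 10 symbols were found, and all 10 passed the filter on low counts that left 14939 genes for testing. The libraries came from a study of CRISPR/Cas9 correction in a newborn rabbit model of hereditary tyrosinemia type I. In this disease fumarylacetoacetate hydrolase (FAH), which completes the breakdown of tyrosine, is lost. Titles place 36 liver RNA-seq libraries in the groups FA, FK and wild type (WT), each with 3 numbered sets of 4 libraries. The meaning of FA and FK, the genotype, the agents given, the age at sampling, the sex and the feeding state are not stated in the labels, so nothing more can be said of what limits each group as a model. The tyrosinemia model is named for every sample, WT included, so group membership was read from titles only. One protocol is given for all groups, in which livers of treated rabbits were digested with trypsin before RNA was extracted. The labels tie neither libraries nor sets to single animals, so the 4 libraries of a set were summed to 1 replicate (n = 3 per group). The p-values reflect how far the 3 sets of a group differ, and that difference may be technical.

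Between meals the liver makes glucose from lactate, amino acids and glycerol, and it stores or releases glucose as glycogen. Pyruvate is carboxylated by PC, oxaloacetate is turned into phosphoenolpyruvate by PCK1 in the cytosol or PCK2 in mitochondria, FBP1 removes a phosphate from fructose 1,6-bisphosphate, and G6PC with the transporter SLC37A4 frees glucose from glucose 6-phosphate in the endoplasmic reticulum. Glucagon, glucocorticoids and fasting raise PCK1, G6PC and the coactivator PPARGC1A, and insulin lowers them.

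Libraries held 11.7 to 22.5 M counts and replicates 53.2 to 78.6 M counts. Levels are given in CPM, counts scaled to library size with TMM factors. FAH, the gene of the disease, averaged 23.3 ± 3.27 CPM in FA, 14.3 ± 2.28 CPM in FK and 242 ± 26.9 CPM in WT (SD, n = 3 each), so it was low in both FA and FK. Its log2 change from WT was -3.37 in FA (adjusted p = 0.00183) and -4.08 in FK (adjusted p = 0.000466). FK replicates 1 and 2 stood apart from the other 7 replicates on the first principal component, at 98.5 and 110.5 against -34.7 to -23.2. In those 2 replicates the summed level of 12 erythroid markers was 879 and 2223 CPM, against 158 CPM in FK replicate 3, 116 to 265 CPM in FA and 42.6 to 110.3 CPM in WT. One marker, TFRC, the transferrin receptor, which other cells also express, made up most of the sum in FA and in FK replicate 3, at 131, 242 and 109 CPM in FA and 143 CPM in FK replicate 3, against 24.5, 19.0 and 28.1 CPM in WT. The median log2 ratio of the 12 markers to the WT mean was -1.12, -1.11 and -2.29 in FA replicates 1, 2 and 3, and 5.03, 6.53 and -1.47 in FK replicates 1, 2 and 3. In FK replicates 1 and 2 the summed level of 8 neutrophil markers was 1071 and 1564 CPM, against 14.8 to 38.4 CPM in the other replicates. That of 12 cell division genes was 341 and 790 CPM, against 16.4 to 23.7 CPM. No erythroid or neutrophil marker was at 0 in FK replicates 1 and 2, and 0 to 2 of the 12 erythroid markers were at 0 in the other replicates. Summed levels of 5 bile duct markers were 4.34 to 10.98 CPM in FA, 3.95 to 32.2 CPM in FK and 9.05 to 10.8 CPM in WT, and those of 6 macrophage markers were 198 to 244 CPM in FA, 318 to 503 CPM in FK and 331 to 445 CPM in WT. Those of 7 lymphocyte markers were 3.69 to 6.31 CPM in FA, 1.74 to 3.44 CPM in FK and 7.69 to 9.28 CPM in WT. Those of 7 endothelial markers were 152 to 221 CPM in FA, 212 to 372 CPM in FK and 273 to 325 CPM in WT, and those of 8 stellate and fibroblast markers were 126 to 202 CPM in FA, 174 to 277 CPM in FK and 215 to 287 CPM in WT. Hepatocyte markers were present in all groups: none of 13 was at 0 in any replicate, and their median log2 ratio to the WT mean was -0.044, 0.15 and 0.041 in FA replicates 1, 2 and 3 and 0.51, 0.15 and 0.26 in FK replicates 1, 2 and 3. Their summed levels were 249185 to 300214 CPM in FA and 219010 to 285662 CPM in WT. In FK replicates 1, 2 and 3 they were 285165, 189693 and 269291 CPM. The markers were split in FK: 6 of the 13 lay wholly above WT and 3 wholly below, against 13.9% and 13.4% of all genes. In bulk tissue, fewer cells of a type and less RNA per cell cannot be told apart. The part of these other cells in the results was not tested.

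The 10 genes did not move as a block. In FK replicates 1 and 2, PCK1, PC, FBP1, SLC37A4 and PPARGC1A were higher than in any WT replicate, while GYS2 and GBE1 were lower than in any. FK replicate 3 did not share the positions of PCK1, PC, FBP1, GYS2 and GBE1. The share of all genes with such positions was not computed, and FK replicates 1 and 2 stood apart over all genes. PPARGC1A was ordered by group, highest in FK, intermediate in FA and lowest in WT, with no overlap between any of the groups. For PCK2 and PYGL no fitted change between groups exceeded 1.31-fold. PCK1 and G6PC also varied widely within WT.

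**Figure D1:**
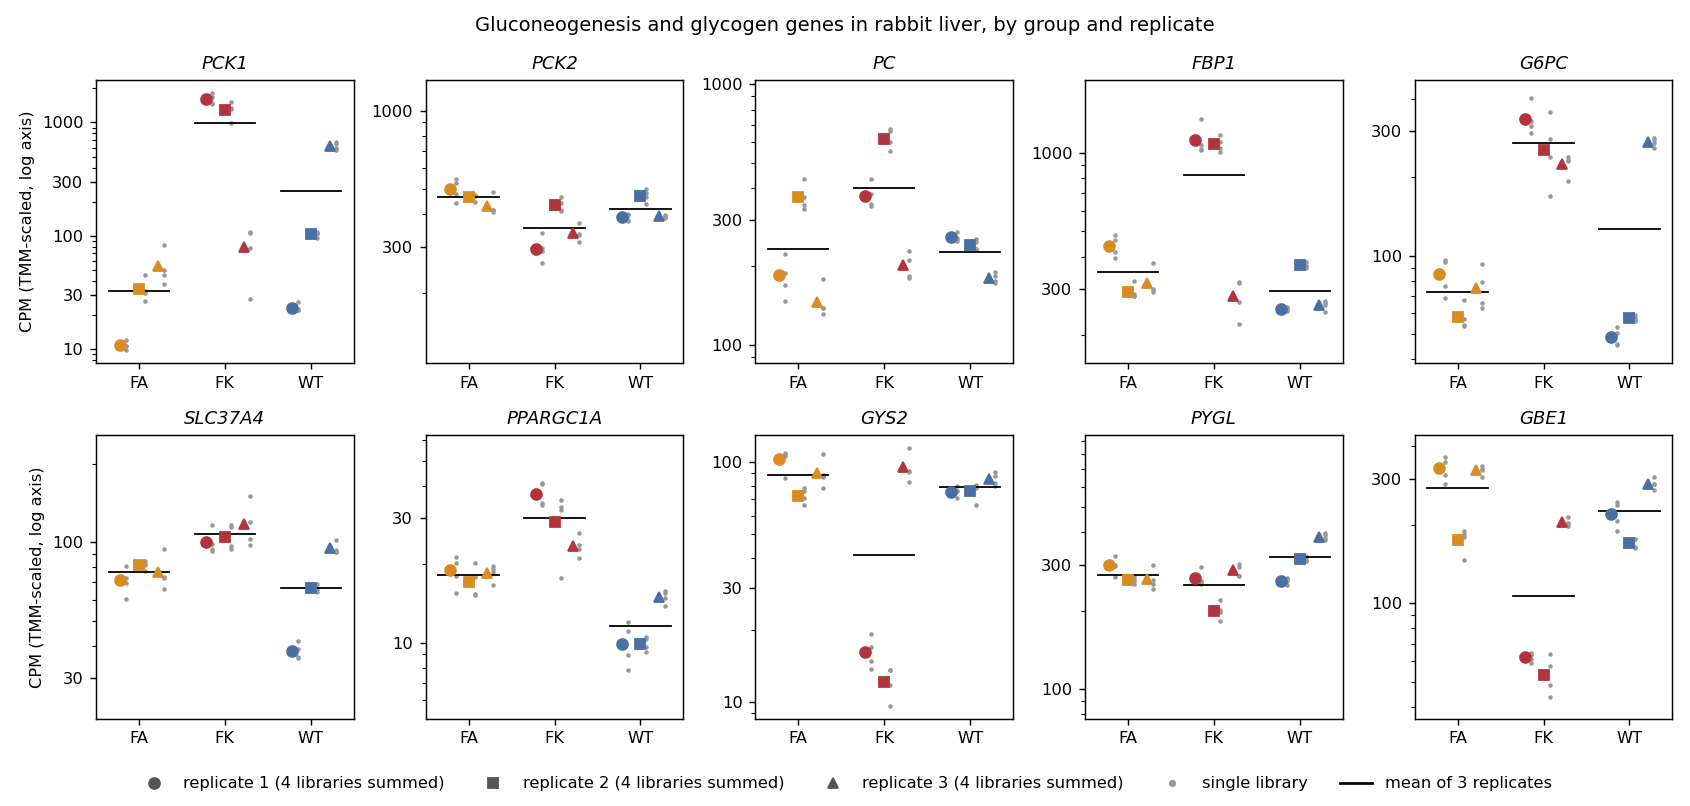
Level of each of the 10 genes in CPM (TMM-scaled, log axis, scale set for each gene) in FA, FK and WT, with coloured symbols for replicates 1, 2 and 3 (4 libraries summed), grey points for single libraries and a line for the group mean. FK replicates 1 and 2 sit at 1606 and 1278 CPM for PCK1 and at 16.1 and 12.1 CPM for GYS2, away from FK replicate 3 at 79.6 and 95.5 CPM.

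PCK1, the cytosolic phosphoenolpyruvate carboxykinase and a main control point of the pathway, had the widest range of the 10 genes. Its levels were 10.8, 34.0 and 53.6 CPM in FA replicates 1, 2 and 3, 1606, 1278 and 79.6 CPM in FK and 23.1, 103 and 621 CPM in WT. All FA replicates were thus below all FK replicates, while both groups overlapped WT. The highest and lowest WT replicates differed 26.9-fold, and those of FK 20.2-fold. Within the sets, the 4 libraries ranged from 9.79 to 11.9 CPM in FA set 1 and from 575 to 677 CPM in WT set 3, but from 27.9 to 109 CPM in FK set 3. The spread of PCK1 in WT therefore lay between sets and not within them.

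PCK2, the mitochondrial form, was steady where PCK1 was not. It stood at 499, 466 and 431 CPM in FA, at 295, 432 and 338 CPM in FK and at 389, 471 and 392 CPM in WT. The groups overlapped in each comparison. Its log2 change was 0.16 (SE 0.24; 95% interval -0.40 to 0.71) in FA against WT and -0.23 (SE 0.24; -0.79 to 0.32) in FK against WT.

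PC, pyruvate carboxylase, which supplies oxaloacetate from pyruvate, stood at 185, 370.5 and 146 CPM in FA, at 374, 619 and 202 CPM in FK and at 258, 242 and 180.1 CPM in WT. FK replicates 1 and 2 and FA replicate 2 were above all WT replicates. The groups overlapped in each comparison.

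FBP1, the liver fructose 1,6-bisphosphatase, stood at 439, 294 and 318 CPM in FA, at 1118, 1079.6 and 281 CPM in FK and at 252, 370.3 and 260 CPM in WT. FK replicates 1 and 2 lay about the same distance above the WT mean, by 1.93 and 1.88 on the log2 scale. FK replicate 3 lay inside the WT range.

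G6PC, the catalytic subunit of glucose 6-phosphatase, was high in all 3 FK replicates, at 335, 256 and 224 CPM, against 85.0, 58.1 and 75.1 CPM in FA and 48.7, 57.6 and 273 CPM in WT. FK lay above FA without overlap. WT replicate 3, at 273 CPM, lay above FK replicates 2 and 3, while WT replicates 1 and 2 lay below every FK replicate. SLC37A4, which carries glucose 6-phosphate to G6PC across the endoplasmic reticulum membrane, stood at 71.7, 81.7 and 76.5 CPM in FA, at 100.3, 105 and 118 CPM in FK and at 38.3, 66.6 and 94.9 CPM in WT. FK lay above both FA and WT without overlap. FK replicate 3 was the highest of all for SLC37A4, unlike its position for PCK1 and FBP1.

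PPARGC1A encodes PGC-1alpha, a coactivator that switches on gluconeogenic genes in fasting liver. It stood at 19.0, 17.1 and 18.5 CPM in FA, at 37.3, 29.1 and 23.5 CPM in FK and at 9.90, 9.89 and 14.9 CPM in WT. Every FK replicate exceeded every FA replicate, and every FA replicate exceeded every WT replicate. Single libraries of a set reached as low as 17.8 CPM in FK set 2, within the FA range of 15.2 to 21.3 CPM.

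GYS2, the liver glycogen synthase, stood at 103, 72.6 and 90.3 CPM in FA, at 16.1, 12.1 and 95.5 CPM in FK and at 75.6, 76.0 and 84.9 CPM in WT. FK replicates 1 and 2 were 4.90-fold and 6.54-fold below the WT mean. FK replicate 3 was above all WT replicates. GBE1, the branching enzyme that adds side chains to growing glycogen, stood at 331, 175 and 324 CPM in FA, at 62.1, 53.1 and 205 CPM in FK and at 219, 170.1 and 287 CPM in WT. FK replicates 1 and 2 were 3.63-fold and 4.25-fold below the WT mean, and FK replicate 3 lay inside the WT range. PYGL, the liver glycogen phosphorylase that releases glucose units from the store, stood at 299, 263 and 264 CPM in FA, at 266, 199.8 and 286 CPM in FK and at 262, 316 and 386 CPM in WT. Its groups overlapped, and the deviations of FK replicates 1 and 2 from the WT mean were -0.27 and -0.68 on the log2 scale, smaller than those of GYS2 and GBE1.

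FK was first set against WT, to see where glucose and glycogen genes stood in livers with that label. PPARGC1A rose, and the other 9 genes did not pass the test, 5 of them with a log2 change above 0 and 4 below. Over all genes, edgeR's quasi-likelihood test called 4.77% at a Benjamini-Hochberg adjusted p under 0.05, 3.04% as higher and 1.73% as lower, beside which 1 of 10 is a single gene. PPARGC1A averaged 30.0 ± 6.93 CPM in FK and 11.6 ± 2.91 CPM in WT (SD, n = 3 each), a log2 change of 1.37 (SE 0.23, adjusted p = 0.0314), or 2.59-fold. In 16 alternatives its log2 change ran from 1.18 to 1.57 and its adjusted p from 2.77e-05 to 0.139, and it was called in 6. Leaving out any 1 replicate other than FK replicate 3 ended the call, and so did the fit of FK and WT alone. FBP1 had a log2 change of 1.49 (SE 0.49; 95% interval 0.37 to 2.61, adjusted p = 0.0994). SLC37A4 had 0.69 (SE 0.30; 0.016 to 1.37, adjusted p = 0.178), PCK1 1.99 (SE 1.27; -0.90 to 4.88, adjusted p = 0.346), G6PC 1.10 (SE 0.60; -0.26 to 2.47, adjusted p = 0.272) and PC 0.81 (SE 0.47; -0.25 to 1.88, adjusted p = 0.3). GBE1 had -1.08 (SE 0.53; -2.28 to 0.12, adjusted p = 0.225), GYS2 -0.94 (SE 0.67; -2.46 to 0.59, adjusted p = 0.403) and PYGL -0.36 (SE 0.25; -0.91 to 0.20, adjusted p = 0.381). The median log2 change was 0.96 over the 6 enzymes and transporters of gluconeogenesis and -0.94 over the 3 glycogen genes, against 0.051 over all genes tested. FK lay wholly above WT in 2 of the 10 genes, SLC37A4 and PPARGC1A, against 13.9% of all genes, and in none of the 10 wholly below, against 13.4%.

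**Figure D2:**
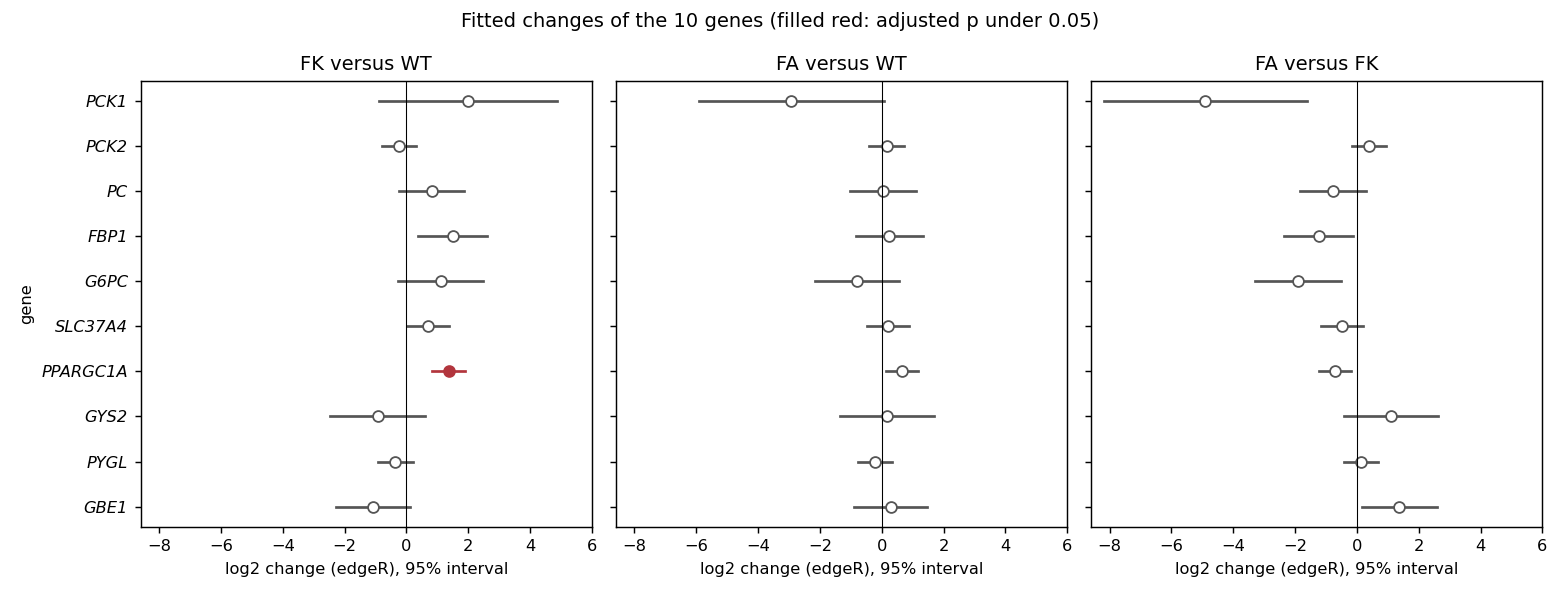
Fitted log2 change of each gene (point) with its 95% interval (line) in FK versus WT, FA versus WT and FA versus FK, from edgeR over all 9 replicates. Only PPARGC1A in FK versus WT passed the adjusted threshold, at 1.37, and the interval of PCK1 is the widest in each comparison, from -0.90 to 4.88 in FK versus WT.

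FK replicate 3 and WT replicate 3 bore most on which of these genes passed. Without FK replicate 3, 4 of the 10 genes were called in FK against WT, where 34.9% of all genes were called. FBP1 rose there by 1.88 (SE 0.27, adjusted p = 0.001) and PPARGC1A by 1.5 (SE 0.22, adjusted p = 0.000975). GYS2 fell by 2.51 (SE 0.235, adjusted p = 0.000121), or 5.68-fold, and GBE1 fell by 1.99 (SE 0.35, adjusted p = 0.00263), or 3.96-fold. For FBP1, GYS2 and GBE1, FK replicate 3 was the FK replicate that did not stand apart from WT in the same direction. Leaving it out by itself therefore widened these differences, and these calls are no separate evidence. PCK1, the gene with the highest levels in FK replicates 1 and 2, was not called even so (2.52, SE 1.08, adjusted p = 0.101). Without WT replicate 3, G6PC alone of the 10 was called, 5.01-fold higher in FK (log2 2.33, SE 0.31, adjusted p = 0.0412), when 0.226% of all genes were called. WT replicate 3 held the highest G6PC of WT, at 273 CPM against 48.7 and 57.6 CPM. Its removal by itself therefore raised the difference from FK, and the call is no separate evidence. PPARGC1A had adjusted p = 0.0598 at 1.57 (SE 0.24) in that fit.

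FA was set against the same WT replicates. None of the 10 genes was called by edgeR, where 0.167% of all genes were called, 0.0937% as higher and 0.0736% as lower. At an unadjusted p under 0.05 there was 1 of the 10, PPARGC1A, against 10.2% of all genes, and DESeq2 called none of the 10. PPARGC1A averaged 18.2 ± 0.957 CPM in FA and 11.6 ± 2.91 CPM in WT (SD, n = 3 each), a log2 change of 0.65 (SE 0.23; 95% interval 0.13 to 1.18, adjusted p = 0.396), and was the only gene of the 10 whose FA replicates all lay above those of WT, against 12.5% of all genes. PCK1 averaged 32.8 ± 21.4 CPM in FA and 249 ± 325 CPM in WT, a log2 change of -2.92 (SE 1.32; -5.92 to 0.071, adjusted p = 0.497). Without WT replicate 3 that change was -0.96 (adjusted p = 0.931). G6PC had -0.80 (SE 0.60, adjusted p = 0.712), which turned to 0.44 (adjusted p = 0.83) without WT replicate 3. The remaining 7 genes had log2 changes between -0.22 and 0.29. The median over the 10 was 0.16, against 0.0035 over all genes. The glycogen genes GYS2 and GBE1 were at 0.17 (SE 0.67) and 0.29 (SE 0.52).

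FA and FK, both low in FAH, were then set against each other. None of the 10 genes was called, and neither was any other gene by edgeR, so that 0% of 14939 genes passed, while 3275 genes, or 21.9%, had an unadjusted p under 0.05 and DESeq2 called 1691. Of the 10 genes, PCK1, FBP1, G6PC, PPARGC1A and GBE1, that is 5, had an unadjusted p under 0.05, and DESeq2 called PCK1 and G6PC lower in FA. FA lay wholly below FK for 4 of the 10, PCK1, G6PC, SLC37A4 and PPARGC1A, against 8.99% of all genes, and wholly above for none, against 8.24%. PCK1 had a log2 change of -4.91 (SE 1.45; 95% interval -8.20 to -1.63, adjusted p = 0.123), which is 30.1-fold lower in FA. G6PC averaged 72.7 ± 13.6 CPM in FA and 272 ± 56.9 CPM in FK (SD, n = 3 each), a log2 change of -1.90 (SE 0.62; -3.30 to -0.50, adjusted p = 0.138). PPARGC1A, with FA below FK in every replicate, was at -0.72 (SE 0.23; -1.24 to -0.19, adjusted p = 0.137), FBP1 at -1.24 (SE 0.49; -2.35 to -0.13, adjusted p = 0.192) and GBE1 at 1.37 (SE 0.53; 0.17 to 2.58, adjusted p = 0.185). GYS2, PCK2 and PYGL were at 1.10, 0.39 and 0.14, and PC and SLC37A4 at -0.77 and -0.49, with adjusted p from 0.36 to 0.776. The median over the 10 was -0.60, against -0.017 over all genes. Without FK replicate 3, 6 of the 10 were called in a fit that called 34.5% of all genes. Here too, leaving out that replicate by itself widened the differences, and these calls are no separate evidence. On the log2 scale PCK1 (-5.44, adjusted p = 0.00796), G6PC (-2.0, adjusted p = 0.0392), FBP1 (-1.63, adjusted p = 0.00203) and PPARGC1A (-0.84, adjusted p = 0.016) were then lower in FA than in FK, and GYS2 (2.67, adjusted p = 9.78e-05) and GBE1 (2.28, adjusted p = 0.00137) were higher.

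WT replicate 3 differed from the other WT replicates in several of these genes at once. It was the highest WT replicate for PCK1, G6PC, SLC37A4, PPARGC1A, GYS2, PYGL and GBE1 and the lowest for PC. IGFBP1, a secreted binding protein that insulin represses, was chosen for mention after its values were seen. It stood at 7.28, 22.4 and 5.97 CPM in FA, at 875, 729.9 and 56.1 CPM in FK and at 3.83, 1.66 and 119 CPM in WT, so that WT replicate 3 was above all FA replicates and above FK replicate 3. WT replicate 3 also held the most erythroid marker RNA of WT, at 110 CPM against 42.6 and 50.3 CPM in WT replicates 1 and 2. The labels give no feeding state, and the part of feeding or of other cells in these values was not tested.

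Beyond the 10 genes, 27 other genes of gluconeogenesis and its precursors were tested, and in FK against WT 1 fell and none rose. Over all genes, 1.73% fell and 3.04% rose. TKFC, which phosphorylates dihydroxyacetone and glyceraldehyde in fructose use, stood at 28.2, 37.2 and 38.7 CPM in FK and at 125, 131 and 157 CPM in WT. No FK replicate came near the WT range, and TKFC fell by 1.99 (log2, SE 0.27, adjusted p = 0.0162). In FA it stood at 53.5, 99.2 and 66.5 CPM, also below WT without overlap but not called (-0.91, SE 0.26, adjusted p = 0.299). None of the 27 was called in FA against WT (3 at an unadjusted p under 0.05) or in FA against FK (9). Of all genes, 10.2% and 21.9% had an unadjusted p under 0.05 in these comparisons. The smallest p of FA against FK belonged to SDS, serine dehydratase, which makes pyruvate from serine. SDS stood at 24.3, 12.4 and 44.7 CPM in FA, at 1362, 1493 and 57.6 CPM in FK and at 143, 119.5 and 133 CPM in WT. Like PCK1, SDS was high in FK replicates 1 and 2. In FK replicate 3 SDS lay below every WT replicate, whereas PCK1 lay inside the WT range. All FA replicates of SDS were also below WT without overlap, as were those of 12.4% of all genes. The log2 change of SDS in FA against FK was -5.16 (SE 1.07, adjusted p = 0.115). Without FK replicate 3, 11 of 28 genes of this list were called higher and 5 lower in FK than in WT, when 18.7% and 16.2% of all genes were. The list's median log2 change with all replicates was 0.18 in FK against WT, 0.078 in FA against WT and -0.13 in FA against FK.

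**Figure D3:**
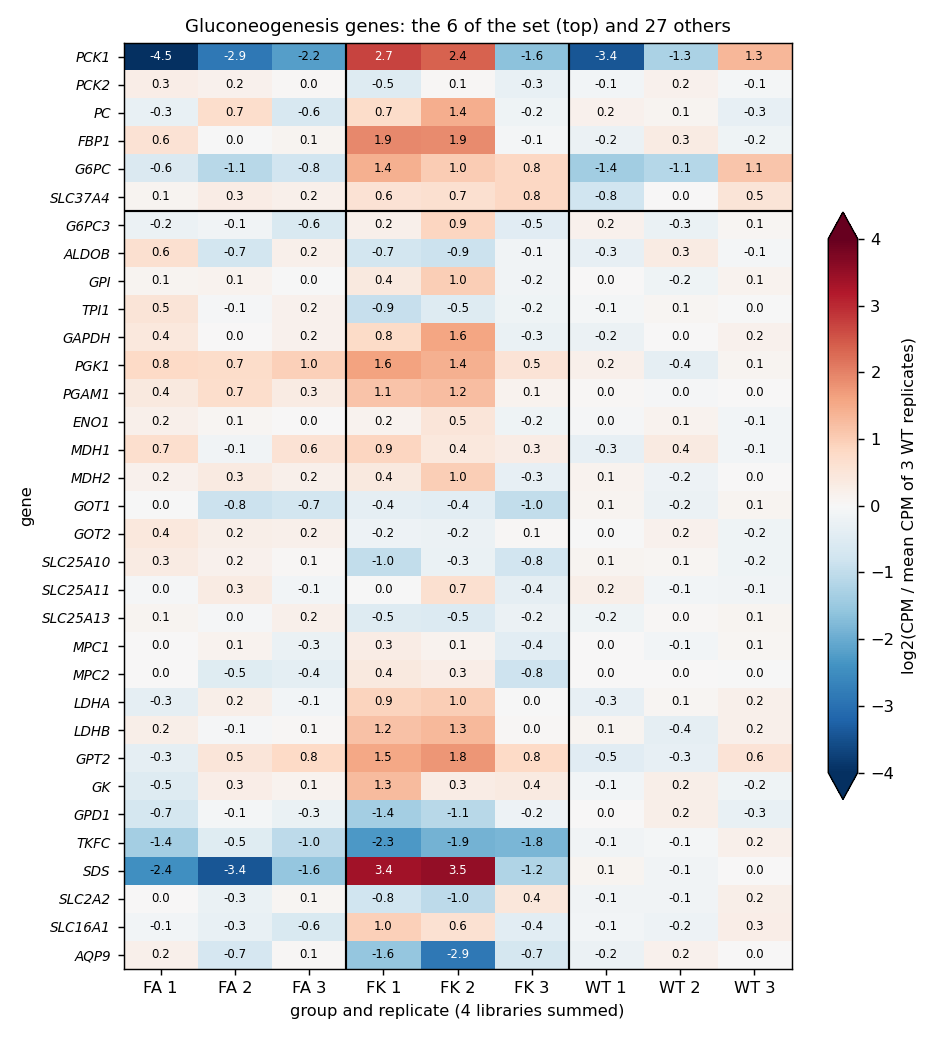
log2 ratio of the CPM of each replicate to the mean CPM of the 3 WT replicates, for the 6 gluconeogenesis genes of the set (above the line) and 27 others, in FA, FK and WT replicates. PCK1 and SDS are above the WT mean in FK replicates 1 and 2 and below it in FK replicate 3 and in all FA replicates, and TKFC is below it in all FA and FK replicates. The WT mean of PCK1 rests mostly on WT replicate 3, at 621 CPM.

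Of 24 other glycogen genes 1 fell in FK against WT and none rose, where 1.73% of all genes fell and 3.04% rose. STBD1, which binds glycogen and tethers it to membranes, stood at 35.7, 28.5 and 46.0 CPM in FK and at 104, 84.2 and 81.6 CPM in WT. It fell by 1.29 (SE 0.23, adjusted p = 0.034) in FK against WT, and in FA, at 41.2, 54.3 and 54.0 CPM, it was also below WT without overlap (-0.85, SE 0.23, adjusted p = 0.264). None of the 24 was called in FA against WT (2 at an unadjusted p under 0.05) or FA against FK (6). Such a p was held by 10.2% and 21.9% of all genes in these comparisons. PYGB, the brain form of glycogen phosphorylase, stood at 6.44, 7.82 and 5.49 CPM in FA, at 51.1, 66.4 and 8.73 CPM in FK and at 9.90, 7.54 and 7.34 CPM in WT. Unlike PYGL, it was thus high in FK replicates 1 and 2 alone (FA against FK -2.68, SE 0.61, adjusted p = 0.115). These replicates also held more erythroid, neutrophil and cell division RNA, whose part in this or any other gene was not tested. The list's median log2 change was -0.19 in FK against WT, 0.0090 in FA against WT and 0.27 in FA against FK. Without FK replicate 3, 9 of the 24 were called lower and 3 higher in FK than in WT, when 16.2% of all genes were called lower and 18.7% higher. Among them, and chosen after their values were seen, the glycogen-targeting phosphatase subunits PPP1R3B and PPP1R3C stood at 6.79 and 7.33 CPM and at 4.73 and 2.53 CPM in FK replicates 1 and 2, against 445, 595 and 138 CPM and 172, 271 and 172 CPM in WT replicates 1, 2 and 3. In FK replicate 3, left out of that fit, PPP1R3B stood at 82.8 CPM and PPP1R3C at 109.7 CPM. With all replicates, STBD1 was the only gene of this list called. The changes that follow are from the fit without FK replicate 3. That replicate lay nearer to WT in these genes than FK replicates 1 and 2 did, so these calls are no separate evidence. PPP1R3B fell by 5.82 (SE 0.66, adjusted p = 0.000276). PPP1R3C fell by 5.84 (SE 0.49, adjusted p = 7.89e-05). UGP2, which makes the UDP-glucose that glycogen synthase uses, was also chosen after its values were seen. It fell by 2.80 (SE 0.55, adjusted p = 0.00467). The 3 genes called higher in that fit were PYGB, GYG1 and GYS1, the last being the muscle form of glycogen synthase, at 1.06 (SE 0.32, adjusted p = 0.0315). GYG1 and GYS1 were likewise named after their values were seen.

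**Figure D4:**
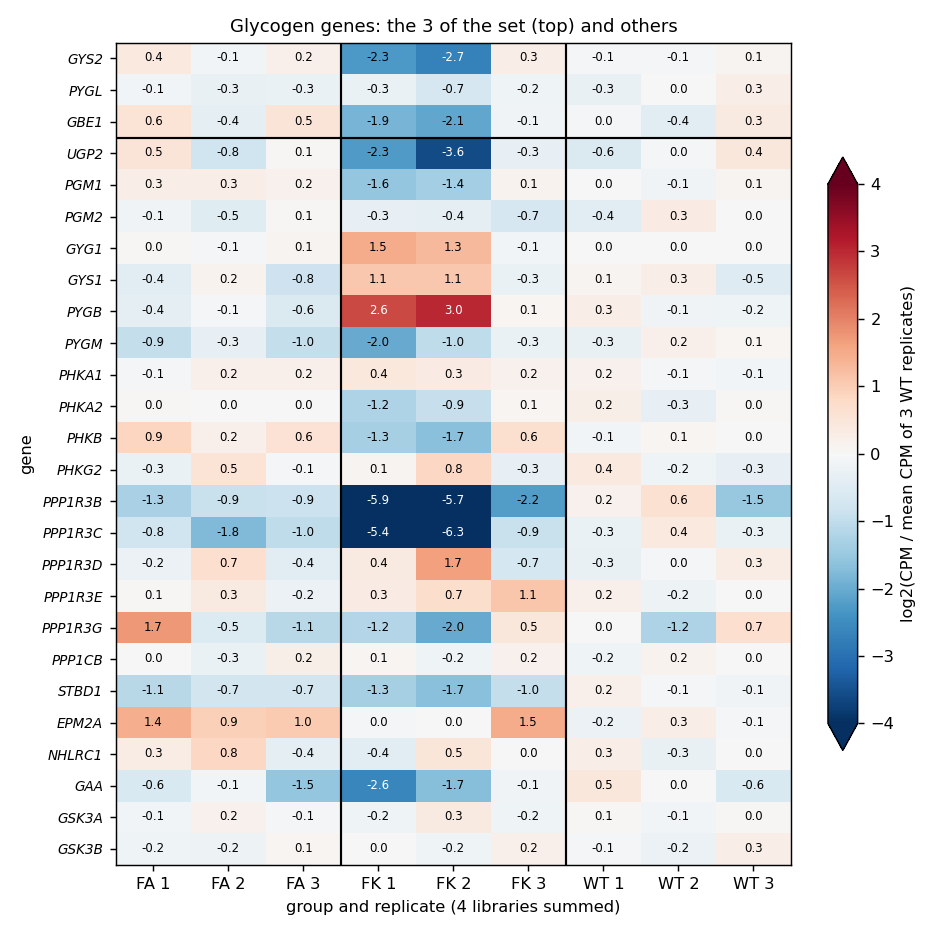
log2 ratio of the CPM of each replicate to the mean CPM of the 3 WT replicates, for GYS2, PYGL and GBE1 (above the line) and other glycogen genes. In FK replicates 1 and 2 GYS2 stands at -2.29 and -2.71 and PPP1R3B and PPP1R3C beyond -4, while PYGB, GYS1 and GYG1 are above 0.

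Of 30 genes for the hormonal and transcriptional control of glucose output none was called in any of the 3 comparisons by edgeR. At an unadjusted p under 0.05 there were 8 in FK against WT, 3 in FA against WT and 6 in FA against FK. Of all genes, 26.9%, 10.2% and 21.9% had one in these comparisons. The list's median log2 change was 0.12 in FK against WT, -0.092 in FA against WT and -0.041 in FA against FK. Without FK replicate 3, 4 of the 30 were called higher and 7 lower in FK than in WT, when 18.7% and 16.2% of all genes were. CEBPA, a transcription factor of mature hepatocytes, came closest in FK against WT. It stood at 210.1, 199 and 152 CPM in FA, at 16.9, 26.4 and 81.8 CPM in FK and at 264, 241 and 112 CPM in WT, below both other groups in FK without overlap (FK against WT -2.30, SE 0.59, adjusted p = 0.0555; FA against FK 2.17, SE 0.58, adjusted p = 0.115). NR4A1, an orphan nuclear receptor induced by glucagon signalling, had the smallest p in FA against WT, at 3.20, 3.35 and 1.61 CPM in FA and 1.55, 0.451 and 0.745 CPM in WT (1.57, SE 0.63, adjusted p = 0.443). In FK it stood at 5.94, 7.92 and 1.81 CPM, also above WT without overlap (2.51, SE 0.64, adjusted p = 0.0563).

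A list for glucose uptake and the control of glycolysis and pyruvate use held 3 calls among 9 tested in FK against WT, 1 higher and 2 lower. Not all of its genes act against glucose output, so these counts give no direction for a pathway. Of all genes, 3.04% were called higher and 1.73% lower. PDK2, a kinase that switches off pyruvate dehydrogenase, stood at 55.0, 44.7 and 46.1 CPM in FA, at 12.1, 19.6 and 32.1 CPM in FK and at 95.9, 61.7 and 91.2 CPM in WT. All FA and FK replicates lay below WT, and PDK2 fell by 1.96 in FK (SE 0.35, adjusted p = 0.034). PFKFB3, which makes the glycolysis activator fructose 2,6-bisphosphate, stood at 4.62, 5.57 and 4.10 CPM in FA, at 24.4, 24.9 and 13.3 CPM in FK and at 6.44, 6.09 and 9.41 CPM in WT. FK lay above WT and FA below it, both without overlap. PFKFB3 rose by 1.51 in FK against WT (SE 0.29, adjusted p = 0.0377) and was not called in the other comparisons (FA against WT -0.62, adjusted p = 0.504; FA against FK -2.13, SE 0.30, adjusted p = 0.115). None of the 9 was called in FA against WT (3 at an unadjusted p under 0.05) or FA against FK (5). The shares of all genes with such a p were 10.2% and 21.9%. The list's median log2 change was -0.15 in FK against WT, 0.060 in FA against WT and 0.25 in FA against FK. Over the 4 lists, 5 of 90 genes were called in FK against WT, where 4.77% of all genes were called. The count was 1 without any 1 FA replicate, where 0.665% to 0.996% of all genes were called, and 0 without FK replicate 1, FK replicate 2 or any 1 WT replicate, where 0.145% to 0.376% were. It was 45 without FK replicate 3, where 34.9% of all genes were called.

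**Figure D5:**
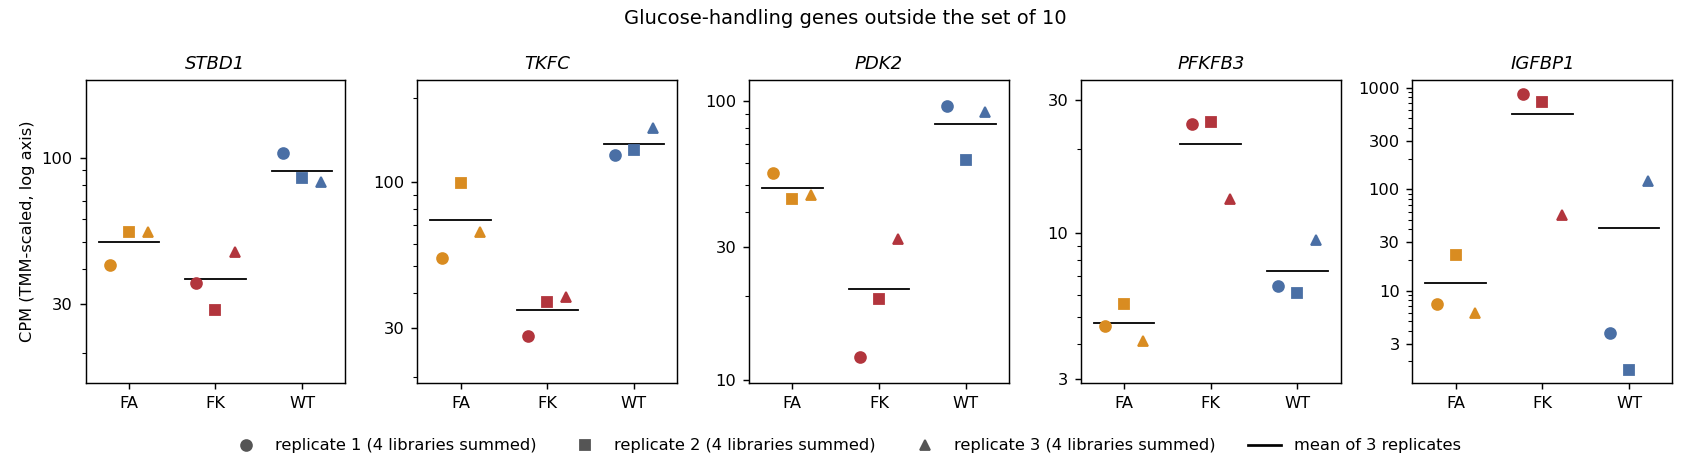
Level in CPM (TMM-scaled, log axis) of STBD1, TKFC, PDK2, PFKFB3 and IGFBP1 in FA, FK and WT, with symbols for replicates 1, 2 and 3 and a line for the group mean. PDK2 lies at or below 55.0 CPM in all FA and FK replicates and at or above 61.7 CPM in WT.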

How the data were processed

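RNA from rabbit livers was sequenced as 36 libraries made with a TruSeq RNA kit, per the labels. No source used here says whether strand was kept, so levels of genes overlapping an antisense gene are uncertain. The authors deposited estimated counts per gene, as whole numbers with no normalization. The submitters' processing notes name Salmon 0.14.1, without its role. For the build, annotation and rounding: not given in the sources used here. Estimated counts divide reads among similar genes, such as the members of 1 enzyme family.

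Libraries of a set were summed (within sets r of log2 CPM was 0.992 to 0.998 over 54 pairs of libraries, between sets of a group 0.901 to 0.988 over 144). One model over all 9 replicates was fitted with edgeR 4.0.16 under R 4.3.3, after filterByExpr and TMM normalization. Its quasi-likelihood F test was used, and p-values were adjusted by Benjamini-Hochberg over 14939 genes. Genes with an adjusted p under 0.05 are termed called, and only these rose or fell. SE is the size of the log2 change divided by the square root of F. The procedure was tested on simulated data.

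The 10 genes and all lists (99 genes in 4 pathway lists, of which 90 were tested, and 85 in 9 lists of cell markers and cell division) were chosen with earlier results of these data known. List genes were matched by symbol. Named were the 10 genes, FAH, per list and comparison up to 4 called genes in each direction by p, or the gene with the smallest p, and the 3 genes most like PCK1, G6PC and GYS2. Other genes of the pathway lists are marked as chosen after their values were seen, or were flagged by the rule given below. Some genes of the lists are counted but not reported here by name. Alternatives were DESeq2 1.42.0, RLE factors, no filter, a filter of 1 CPM in 3 replicates, a fit of the 2 groups compared, the set number as a block, limma-voom (limma 3.58.1) on 36 libraries with the set as random block (correlation 0.758), and each replicate left out. Figures were drawn with matplotlib 3.10.9.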

Additional observations from a re-analysis of the deposited data

Results flagged for a closer look

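The rule here was that all FA replicates lay on one side of the WT mean and all FK replicates on the other. It was met by 5 genes out of the set of 10 and the 90 tested genes of the pathway lists. The share of all genes that meet it was not computed. The values are log2 changes in FA over FK, and edgeR's own test of that difference did not pass for any of the 5. G6PC was lower in FA, at -1.90 (adjusted p = 0.138), and without WT replicate 3 its change in FA against WT was 0.44. IGFBP1 was at -5.54 (adjusted p = 0.135), and without WT replicate 3 its change in FA against WT was 2.11 (adjusted p = 0.784), on the same side of WT as FK. PYGB was at -2.68 (adjusted p = 0.115) and PFKFB3 at -2.13 (adjusted p = 0.115). PYGB met the rule narrowly, with FK replicate 3 at 8.73 CPM, a WT mean of 8.26 CPM and WT replicates from 7.34 to 9.90 CPM. SLC25A10, the mitochondrial dicarboxylate carrier, was at 0.83 (adjusted p = 0.118), with FA replicates at 191, 173 and 158 CPM, FK replicates at 77.5, 126 and 89.96 CPM and WT replicates at 163, 159 and 134 CPM.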

How the results depend on the processing

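FAH was called lower in FA and in FK against WT in all 16 alternatives. The 10 genes in FA against WT had no call in any of them. Counts of called genes depended on the tool and on single replicates. In FK against WT, 712 genes, 1 of the 10 and 5 of the pathway lists became 2591, 2 and 20 with DESeq2, 2855, 7 and 39 with limma-voom on 36 libraries, 43, 0 and 1 in the fit of FK and WT alone, and 47, 0 and 1 with the set number as a replicate block. In FA against WT, 25 genes and 0 of the pathway lists became 352 and 2 with DESeq2, 552 and 7 with limma-voom and 235 and 3 in the fit of FA and WT alone, and the replicate block left 3 genes. In FA against FK, 0 calls became 1691 genes, 2 of the 10 and 13 of the lists with DESeq2, and 2507, 7 and 34 with limma-voom. Leaving out each replicate gave 22 to 5396 genes, 0 to 4 of the 10 and 0 to 45 of the lists in FK against WT, 2 to 247 genes and 0 to 3 of the lists in FA against WT, and 0 to 5324 genes, 0 to 6 of the 10 and 0 to 45 of the lists in FA against FK. The highest value of each range came without FK replicate 3. The set numbers did not pair the samples: same-numbered sets deviated from their group means with r from -0.125 to 0.128. Signs turned only where no call was made, in FA against WT. PC, at 0.044, was at -0.081 with the replicate block and -0.090 with limma-voom, and leaving out each replicate gave -0.45 (without FA replicate 2) to 0.30, with -0.11 without WT replicate 3. Leaving out each replicate gave -0.069 (without WT replicate 1) to 0.53 for SLC37A4 and -1.17 to 0.44 (without WT replicate 3) for G6PC. The cause was not tested.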

Other observations

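The genes whose log2 CPM followed those of 3 of the 10 genes most closely over the 9 replicates are given as a description, since FK replicates 1 and 2 stand apart and both genes of a pair are read from the same libraries. FOXC1 was closest to PCK1, at r = 0.995 over 9 replicates and 0.99 over the 7 without FK replicates 1 and 2, followed by GUCY1A3 (0.946 and 0.863) and VAMP1 (0.944 and 0.924). ARL6IP6 was closest to G6PC (0.933 and 0.908), followed by CITED2 (0.926 and 0.882) and PNRC1 (0.918 and 0.906). RBM47 was closest to GYS2 (0.997 and 0.905), followed by SULT3A1 (0.996 and 0.811) and PREX2 (0.995 and 0.951).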
